A study of Mus musculus with 12 samples.

Results

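The peaks described here are the 863 Meis1 peaks of greatest strength in the ventricles of the young mouse heart, out of 30534 Meis1 peaks in all (2.83%). They were chosen by the deposited peak strength alone: every peak with a strength of at least 100 was taken. Strength is the authors' own value per peak, and per the file headers it carries only a column number whose place is that of the signal field in a narrowPeak list. The peaks were assigned by the authors to 781 genes, of the 9840 that the whole Meis1 list names (7.94%).

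Chromatin immunoprecipitation followed by sequencing reads out the DNA that an antibody to a chromatin protein brings down. The study used ventricles of CD-1 mice at postnatal day 15, with no allele, transgene or treatment named in the labels. Its 12 libraries form 4 groups of 3: Meis1 precipitates, their inputs, Hoxb13 precipitates and their inputs. By the protocol both precipitates come from the same 3 hearts, although the titles number the replicates of each factor separately. For each factor 1 peak list stands for its 3 libraries. No value per library was used here, so peaks have no spread between hearts, the read depth behind a strength is unknown, and each test below compares peaks within these lists, not animals. In a whole ventricle, binding in few cells and weak binding in many cannot be told apart.

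Meis1 is a homeodomain factor of the TALE class, whose members carry a short loop extension in the homeodomain. It binds DNA alone or with Pbx and Hox proteins at a core written TGACAG, and in the heart it is best known for its part in the withdrawal of cardiomyocytes from the cell cycle after birth. Hoxb13 is a homeodomain factor of the posterior Hox group and is known as a Meis1 partner in that setting.

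The DNA under some of these peaks can be shown where the summit fell in a RefSeq promoter window (250 bases before to 50 bases after a start site, build GRCm38.p6). This held for 32 of the 863 peaks. Of the 32, 25 carried the authors' promoter class, and 7 did not, since RefSeq places a start site there that the authors' assignment did not use. The sequences below lie within 40 bases of the summit on either side and only upstream of the start site. They are the 5 strongest of the windows whose summit lies more than 10 bases upstream of the start site, and those of Tnnt2 and Myl2, the genes of cardiac troponin T and the ventricular regulatory myosin light chain, which were added after their values were seen. They are printed 5′ to 3′ on the strand of the gene, and capitals mark each match to the Meis core TGACAG or to its reverse complement CTGTCA.
Gm41414, strength 325, chr16:5431244-5431324, plus strand, peak assigned to Eef2kmt: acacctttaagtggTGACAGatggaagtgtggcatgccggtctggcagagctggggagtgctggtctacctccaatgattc
Cacna1c, strength 290.2, chr6:119196544-119196624, minus strand: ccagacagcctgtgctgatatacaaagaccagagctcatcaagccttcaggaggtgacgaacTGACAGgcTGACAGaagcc
Lrrc10, strength 286, chr10:117045222-117045302, plus strand: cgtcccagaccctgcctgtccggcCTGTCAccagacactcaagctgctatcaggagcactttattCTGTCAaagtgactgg
Gm32128, strength 214, chr1:191420517-191420574, plus strand, peak assigned to Ppp2r5a: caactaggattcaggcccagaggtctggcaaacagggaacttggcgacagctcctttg
1700096K18Rik, strength 201, chr5:25529816-25529896, plus strand: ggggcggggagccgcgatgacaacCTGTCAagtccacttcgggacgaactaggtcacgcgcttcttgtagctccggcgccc
Tnnt2, strength 179, chr1:135836087-135836167, plus strand: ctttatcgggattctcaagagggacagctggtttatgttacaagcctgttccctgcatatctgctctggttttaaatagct
Myl2, strength 168, chr5:122092988-122093068, plus strand: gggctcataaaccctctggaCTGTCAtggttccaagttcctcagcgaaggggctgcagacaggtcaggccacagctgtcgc
Cacna1c, the pore-forming subunit of the cardiac L-type calcium channel, and Lrrc10, a heart-restricted leucine-rich repeat protein, each showed 2 cores in the printed stretch. The stretches at Gm41414, 1700096K18Rik and Myl2 showed 1 each, and those at Tnnt2 and Gm32128 showed 0. The Myl2 stretch lies 5′ of a RefSeq start site, with the summit at -161 bases, while the authors' list placed the same peak at -7.81 kb from the Myl2 start site it used.

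Peak strengths of the 863 peaks ran from 100.007 to 552, with a median of 145 and quartiles of 119 and 194. Of them, 404 reached 150, 207 reached 200 and 51 reached 300. The remaining 29671 peaks had a median of 18.5, and their highest was 99.97. The line at 100 falls in an unbroken run of values. Just inside it lay peaks assigned to Mki67 (100.3), Grb14 (100.3), Lsmem1 (100.1), Iba57 (100.04) and Kdm4c (100.007). Just outside it lay peaks assigned to Ywhaz (99.97), 3110039I08Rik (99.91), Tead1 (99.91), E330017L17Rik (99.90) and Alpk3 (99.84).

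The strongest peak of all, at 552, lay at chr17 in intergenic DNA at -85.0 kb from Lclat1, the gene of an acyltransferase that remodels cardiolipin, where a negative distance means upstream of the start site. Lclat1 also held the tenth strongest, 392, in its intron 5 at 118 kb. Between them came Myl2 with 540 (-6.14 kb), the engrailed homeobox gene En1 with 446 (156 kb), the collagenase gene Mmp13 with 438 (-2.09 kb) and the phospholipase gene Plcb2 with 434 (in its intron 16). Arrdc3, of an arrestin-domain protein, followed with 430 at -347 kb and Ntm, of a neuronal adhesion protein, with 400.3 at -175 kb. The transcripts Gm1653 and A330074K22Rik had 399 and 393. These strongest peaks were thus mostly far from the start site of their assigned gene, and the assignment by distance does not show that the gene is acted on.

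Of the next 10, Ryr2 and Jph2 are genes of calcium handling. Ryr2, the ryanodine receptor that releases stored calcium in each beat, had 382 at -26.6 kb, and Jph2, the junctophilin that holds the T-tubule near that store, had 375 in its intron 2. The others were Arl8a (391), the spectrin gene Sptbn1 (387), the secreted Wnt inhibitor Wif1 (384), Lrrc3 (378), Pnrc1 (373), the reticulon gene Rtn4 (368), Nsmaf (368) and the kinase gene Hipk3 (365). The peak assigned to Lrrc3 sat in intron 13 of Trpm2, and that assigned to Nsmaf sat in intron 6 of Tox at -254 kb. Among the 20 strongest peaks 12 were intergenic and 8 intronic, and 4 lay within 10 kb of the assigned start site. Of the 392 intronic peaks, 118 (30.1%) lay in an intron of another gene than the one assigned, against 25.8% of the remaining intronic peaks.

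Width comes from the same peak calls as the strength and is given without a test. Of the remaining peaks, 97.7% had a width of exactly 284 bp and none was wider. Among the 863, 10 peaks (1.16%) had that width, 833 were narrower and 20 were wider. Their median width was 190 bp, with quartiles of 164 and 218.5 bp and a range from 73 to 451 bp. Width followed strength among them: the median was 167 bp at a strength of 100 to 150, 201 bp at 150 to 200, 228 bp at 200 to 300 and 250.0 bp above 300. Over the 863 peaks Spearman's rho of strength and width was 0.864, and over all 30534 peaks it was -0.365, a description across peaks of 1 list. The change from the fixed width was already there below the line, since peaks of strength 80 to 100 had a median width of 133 bp. The deposited second score, whose meaning the files do not state, was 3.3249 in every one of the 863. That is its highest value in the list and was shared by 3170 peaks, down to a strength of 42.5.

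**Figure D1:**
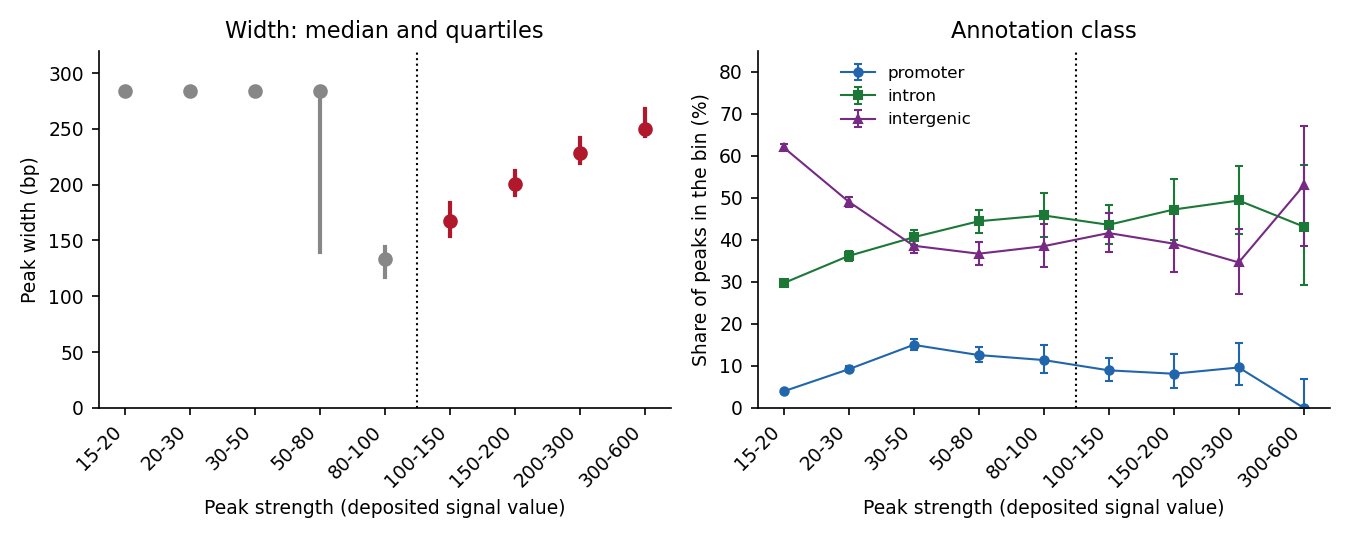
Peak width in bp (left, points are medians and lines run between quartiles) and share of peaks per annotation class in percent (right, bars are exact 95% intervals) against peak strength in 9 bins, with the dotted line at a strength of 100. Width falls from the fixed 284 bp to a median of 133 bp at 80 to 100 and then widens to 250.0 bp. The intron share rises mostly between the weakest bin and 30 to 50. The intergenic share falls over that range and is higher again above 300, with a wide interval. The promoter share is highest at 30 to 50 and is 0 above 300.

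The first question was where the strongest peaks lay in and around genes. By the deposited annotation, 392 of the 863 peaks were intronic (45.4%, exact 95% interval 42.1 to 48.8) and 349 intergenic (40.4%, 37.1 to 43.8). Of the remaining peaks 33.1% were intronic and 55.4% intergenic. The odds ratio was 1.68 for introns (1.47 to 1.93, Fisher's exact test, two-sided, adjusted p = 4.916e-13 over 7 classes) and 0.548 for intergenic DNA (0.477 to 0.629, adjusted p = 4.299e-17). Without intergenic peaks the intron share no longer passed the test (odds ratio 1.12, Fisher's exact test, adjusted p = 0.779), since a lower share of 1 class raises the shares of the others. Peaks in a first intron made up 114 of the 392 intronic ones (29.1%, against 30.3%, exact test, adjusted p = 0.654).

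Promoter peaks, those within 1 kb of a start site, numbered 72 (8.34%, 6.58 to 10.4), against 6.69% of the remaining peaks. The odds ratio of 1.27 did not pass Fisher's exact test (adjusted p = 0.109). The smaller classes held 24 exonic peaks, 13 in 3′ UTRs, 8 downstream of genes and 5 in 5′ UTRs. Their odds ratios were 1.08, 1.32, 0.975 and 2.98, and none passed the exact test (lowest adjusted p = 0.0761, for 5′ UTRs). The strongest of these classes were an exonic peak in Bpifb1 (323, in its exon 6), a downstream one assigned to the potassium channel gene Kcnj5 (279.8), one in a 5′ UTR assigned to Mir6943 (265) and one in a 3′ UTR assigned to Dym (229).

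As a set, the strongest peaks lay closer to start sites than the remaining peaks. Their median distance was 25.8 kb, with quartiles of 8.01 and 72.9 kb, against 59.96 kb for the remaining peaks. Among the 863, Spearman's rho of strength and distance was 1.256e-04. The median was 17.2 kb at a strength of 200 to 300 and 37.7 kb above 300, where 52.9% were intergenic (exact interval 38.5 to 67.1). Of the 863, 249 lay within 10 kb (28.9% against 19.6%, odds ratio 1.67, 1.43 to 1.94, exact test, adjusted p = 1.979e-10 over 5 tests). Beyond 100 kb lay 161 (18.7% against 39.6%, odds ratio 0.350, 0.295 to 0.416, exact test, adjusted p = 4.200e-38). The fullest range was 10 to 50 kb, with 323 peaks (37.4% against 26.8%). Only 10 were farther than 500 kb (1.16% against 11.1%), among them peaks assigned to the netrin receptor gene Dcc (243, -539 kb) and to Tbl1xr1 (177, -813 kb). Upstream peaks made up 45.01% of the 791 outside promoters, against 46.0% (exact test, adjusted p = 0.654).

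**Figure D2:**
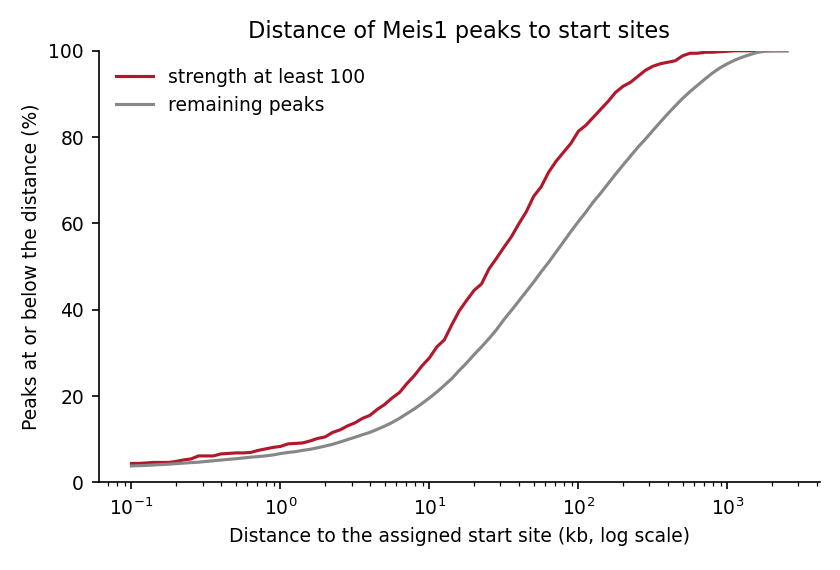
Cumulative share of peaks in percent against the distance to the assigned start site in kb on a log scale, for the 863 strongest peaks and the 29671 remaining ones. The curve of the strongest peaks lies to the left, with medians of 25.8 and 59.96 kb.

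These differences depended on the peaks used for comparison. Most remaining peaks are weak, with 18255 of them between 15 and 20. Against the 1650 peaks of strength 50 to 100, a comparison added after the data were seen, the intron share was 45.4% against 44.7% (odds ratio 1.03, 0.872 to 1.21, with adjusted p = 0.868 by the exact test) and the intergenic share 40.4% against 37.1% (1.15, 0.973 to 1.36, adjusted p = 0.384). The share within 10 kb was 28.9% against 31.5% (odds ratio 0.884, interval 0.738 to 1.06, adjusted p = 0.417 by the same exact test). The share beyond 100 kb was 18.7% against 17.6% (1.08, 0.869 to 1.33), with exact test and adjusted p = 0.512. Promoter peaks were the only class of the 7 that passed the exact test here, and the share was lower in the strongest: 8.34% against 12.3% (odds ratio 0.649, 0.489 to 0.861, adjusted p = 0.0170). By strength, promoter peaks made up 3.93% at 15 to 20, 12.6% at 50 to 80, 11.4% at 80 to 100 and 8.93% at 100 to 150. Above 300 there were 0 among 51 peaks (exact interval up to 6.98%), and the strongest peak of the authors' promoter class was that of Cacna1c. The peak of 325 printed above for Gm41414 was classed as intergenic, although its summit lay at -110 bases from a RefSeq start site.

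**Figure D3:**
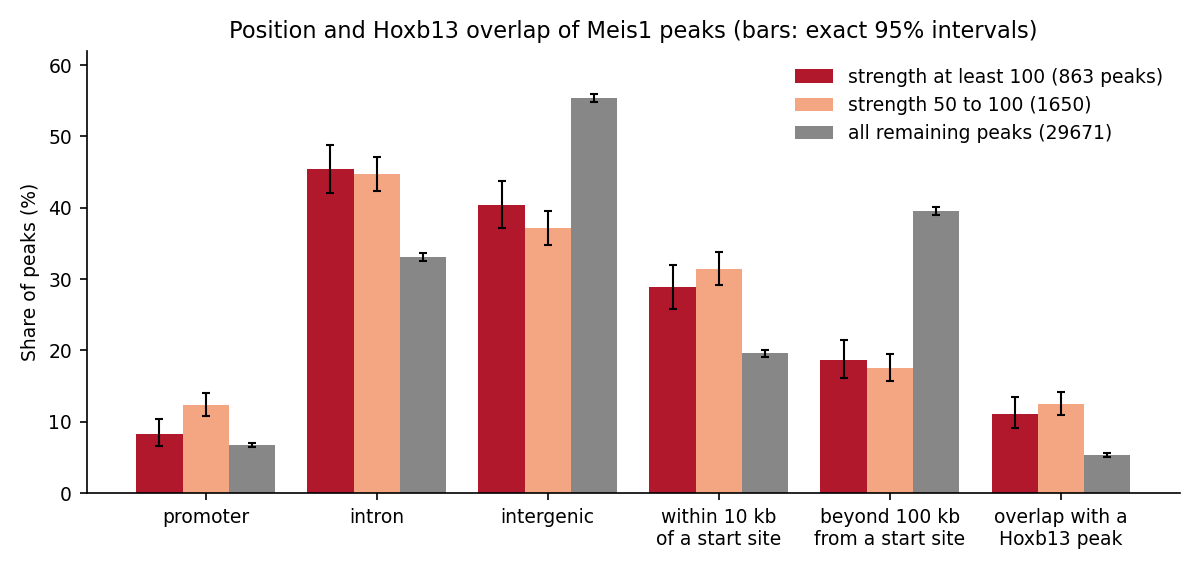
Share of peaks in percent by position and by overlap with a Hoxb13 peak, for the 863 strongest peaks, the 1650 peaks of strength 50 to 100 and the 29671 remaining peaks, which include the 1650. Bars show exact 95% intervals for counting error, and the strongest peaks differ from all remaining peaks in every share drawn but promoters, while from those of 50 to 100 only the promoter share passed the test.

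Of the 72 promoter peaks, 7 were at genes of the lists of sarcomere, calcium and channel, and cardiac transcription factor genes described below: Cacna1c, Cacnb2, Mef2a, Camk2a, Hspb7, Tnnt2 and Popdc2. The other 65 were at genes outside them. After Cacna1c (290.2) and Lrrc10 (286) came Cacnb2, the beta subunit of the same calcium channel (285, at -0.785 kb), and Apobec2, a muscle deaminase family gene (276). Next were Tfpi (257), Sh3kbp1 (249), Ubl3 (248) and Galnt15 (241). Nrap, an anchoring protein of the growing sarcomere, had 237 and Mef2a, a muscle transcription factor, had 235. Then came Aph1b (230), Efnb3 (215) and Mir7117 (209.6), and 1700096K18Rik had 201. The kinase gene Camk2a had 201, the titin-binding ubiquitin ligase gene Trim55 196, the small heat shock gene Hspb7 191, Adcy6 183, 2010310C07Rik 180.4, Tnnt2 179, Ssbp2 178, Depdc1b 176, Zfp68 171, Ten1 167, Ctdsp1 166 and the caveola-associated Popdc2 160.0. Pknox1, itself a TALE factor gene, had 151 with the peak over its start site.

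The letters under the summits were compared in the 32 promoter windows, against 814 windows that hold a remaining peak's summit. TGACAG was present in 23 of the 32 (71.9%, exact interval 53.3 to 86.3), in 423 of the 814 (52.0%) and in 19.2% of all 32851 RefSeq windows. The odds ratio of 2.36 (1.08 to 5.17) did not pass Fisher's exact test after adjustment over 12 motifs (adjusted p = 0.181). The matches lay near summits: within 30 bp there was a match in 19 of 32 (59.4%, 40.6 to 76.3) against 311 of 814 (38.2%), with an odds ratio of 2.36 and p = 0.0250 by Fisher's exact test. That measure was added after the data were seen and has no adjustment. Among windows with a match, the median distance of the nearest one to the summit was 13.5 bp and 16.5 bp. At least 2 matches were present in 8 of the 32 windows (25%) and in 9.09% of the 814.

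The 11 other motifs, each searched on both strands, did not pass the test either. The GATA site AGATAAG was in 4 of the 32 windows, in 2.83% of the 814 and in 3.04% of all windows (exact test, adjusted p = 0.181). The E-box CAGCTG, which can share its first letters with the end of a Meis core, was in 10 (22.9% and 16.3%), and the TEAD site GGAATG in 5 (12.3% and 14.7%). The CRE core TGACGTC (6.02% and 3.21%), the Mef2 core CTATTTA (2.58% and 2.91%) and the nuclear receptor site AAGGTCA (4.18% and 4.72%) were in 2 windows each. The Pbx-Meis composite TGATTGA (7.37% and 2.70%) and the Hoxb13 core CAATAAA (3.19% and 4.60%) were in 1 each. The Hox-Pbx composite TGATTTA (1.84% and 2.97%), the AP-1 site TGAGTCA (4.18% and 5.20%) and the NRF1 core GCATGCG (7.62% and 3.58%) were in 0. With 32 windows, a count of 0 leaves an exact upper limit of 10.9%, so a share below that limit is not excluded. These windows stand for 32 of the 863 peaks. The sequences of the other peaks, among them nearly all intronic and intergenic ones, were not analysed here.

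**Figure D4:**
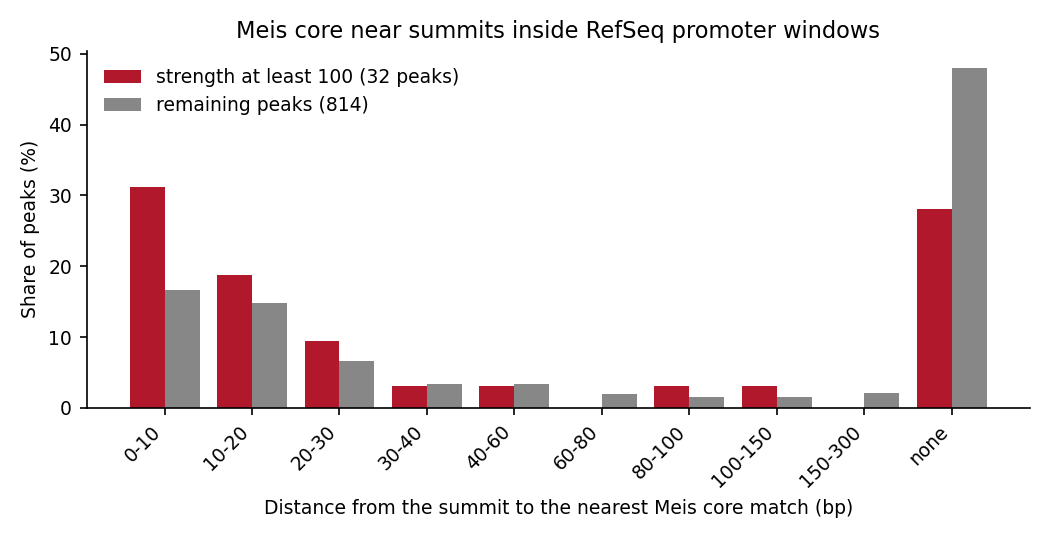
Share of peaks in percent against the distance in bp from the summit to the nearest match of the Meis core, for the 32 strongest peaks with a summit in a RefSeq promoter window and the 814 remaining peaks with one. Most matches lie within 30 bp of the summit in both groups, and 23 of 32 against 423 of 814 windows hold a match.

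Genes were grouped by role in 16 lists, each set beside all protein-coding genes, of which 662 of 21896 (3.02%) had a peak of strength 100 or more, or 7.92% of the 8359 with any Meis1 peak. In the list of calcium cycling and ion channels 16 of 40 genes had one, of 36 with any Meis1 peak. Beside Ryr2, Jph2, Cacna1c and Cacnb2, these included Atp2a2, the calcium pump of the sarcoplasmic reticulum (324, at -18.9 kb), Abcc9, a subunit of ATP-sensitive potassium channels (282, intronic), and Casq2, the store's calcium buffer (122). Potassium channel genes on the list were Kcnj5 (279.8), Kcnj2 (234), Kcnj11 (211) and Kcnh2 (201 and 149). The gap junction gene Gja5 had 217 and the pacemaker channel gene Hcn4 had 164. The locus sizes of these genes were not taken into account, and a gene with a long locus can be assigned more peaks.

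Among sarcomere and Z-disc genes 9 of 46 (19.6%) had such a peak, of 37 with any Meis1 peak. They were Myl2, Fhl2, Hspb7, Ankrd1, Tnnt2, the LIM protein gene Csrp3 (157), Palld (135), the alpha-actinin gene Actn2 (128) and Ldb3 (123). The planned cardiomyocyte markers Myh6 and Ttn had none, and their strongest peaks reached 37.4 and 86.2. Cardiac transcription factors held 10 of 30 (33.3%), of 24 with any peak. Irx3 led with 276 at -186 kb, followed by Mef2a, the homeodomain-only gene Hopx (220.5), Prdm16 (188) and Myocd, the coactivator of serum response factor (173 and 121, both in its intron 5). Tbx20, Tead1, Hey1, Irx1 and Prox1 lay between 104 and 144. Irx3 and Irx1 are, like Pknox1 above, genes of TALE factors.

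Metabolic, cell cycle and growth factor lists held 1 or 2 such genes each, against the 3.02% of all protein-coding genes. Among genes with any Meis1 peak the share was 8% for fatty acid oxidation, 7.69% for cell cycle inhibitors and 7.14% for the growth factor list. These lie near the 7.92% of all protein-coding genes with any Meis1 peak. For glucose handling it was 11.8% and for cell cycle activators 18.2%, each from 2 genes. Fatty acid oxidation and its regulators held 2 of 36 (5.56%), Ppara (171) and Ppargc1a (119), both regulators and not enzymes. Glucose handling held 2 of 29 (6.90%), the hypoxia genes Egln3 (135) and Hif1a (105). Cell cycle inhibitors held 1 of 21 (4.76%), Btg1 (172 at 91.5 kb), although 13 had some Meis1 peak. Activators held 2 of 26 (7.69%), Mycn (131) and Mki67 (100.3), and the growth factor, Hippo and calcineurin list 2 of 42 (4.76%), Tead1 and Rcan1 (110.1).

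Markers of other cells of the ventricle were also counted. Fibroblast and matrix markers held 3 of 27, Mmp13, Gsn (212) and Dpt (119), and endothelial markers 2 of 28, Pecam1 (212 and 126) and Efnb2 (128). Smooth muscle and pericyte markers held 1 of 16, Abcc9, which the channel list also holds, and leukocyte markers 1 of 24, Ly6c2 (167). Among genes with any Meis1 peak the shares were 13.6% for fibroblast, 11.8% for endothelial, 14.3% for smooth muscle and 20% for leukocyte markers. The share of all protein-coding genes with any Meis1 peak was 7.92%. These list shares rest on 1 to 3 genes each and were not tested. Hepatocyte markers held 0 of 24, with 9 that had any Meis1 peak, and Hox cluster genes 0 of 39, with 1, beside the share of 3.02% over all protein-coding genes. Neuronal adhesion and guidance genes held 6 of 46, Ntm, Cdh2 (298), Dcc, Cntnap2 (232), Sema3d (159) and Epha3 (139.7), and all 46 had some Meis1 peak. Cdh2 is also the cadherin of the intercalated disc.

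A further 35 of the 863 peaks were assigned to microRNA genes, from 100.4 to 347. Mir7028 had the strongest and Mir21c had 291. Mir1b, a gene of the muscle microRNA miR-1 family, had 168 at -0.934 kb, and Mir29b-1, Mir30d and Mir490 had 159, 159 and 116. The microRNA is only the nearest listed start site for most of these, since 28 of the 35 lay more than 10 kb from it. Such distances are not particular to microRNA genes: 28.9% of the 863 and 19.6% of the remaining peaks lay within 10 kb of their start site. The microRNA share of the whole Meis1 list is not given here.

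The second question was how the strongest peaks cluster. Their nearest other Meis1 peak lay at a median of 14.4 kb (summit to summit), against 22.5 kb for the remaining peaks, and 43.2% had another Meis1 peak within 10 kb, against 29.3%. Within 100 kb the shares were 92.0% and 91.2%. Within 50 kb they were 79.4% and 74.7%, without a step at the line. By strength the 50 kb share was 76.0% at 50 to 80, 80.8% at 80 to 100 and 77.6% at 100 to 150. It was 81.2% at 150 to 200, 83.3% at 200 to 300 and 76.5% above 300. The 10 kb share was not set against peaks of strength 50 to 100. These values come from the same peak calls and have no test. Of the 781 genes, 706 had 1 such peak, 69 had 2, 5 had 3 and 1 had 4. For 147 of the 863 (17.0%) the peak was the only Meis1 peak of its gene, a share not given here for the remaining peaks. Joined at up to 50 kb, the 863 formed 56 groups of 2 or more with 115 peaks, and at up to 10 kb 26 groups with 54.

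Fhl2, of a LIM-domain protein of the Z-disc, was the gene with 4. Its peaks of 128, 228, 107 and 251 stood at -43.1, -50.9, -53.7 and -63.2 kb and spanned 20.1 kb of intergenic DNA. The gene had 10 Meis1 and 41 Hoxb13 peaks in all, and 1 of the 4, the peak of 228, overlapped a Hoxb13 peak. Cacnb2 had its promoter peak of 285 and 2 in intron 3, of 149 and 280.4, which the list places at 44.0 and 56.3 kb from another start site of the gene. Its 3 peaks spanned 107 kb. Ankrd1, of a stretch-induced titin-binding protein, had 187 and 129 with summits 213 bp apart near -47.5 kb and another of 189.8 at -110 kb.
Ppp1r14c, of a phosphatase inhibitor, had 342 and 217 in its intron 1 and 142 upstream at -28.2 kb. The genes 2310008N11Rik and Bod1 had 3 each, the strongest 184 and 125, spread over 333 and 95.1 kb. The strong peaks of Fhl2 thus lay together upstream, while those of Ankrd1 were a close pair and a distant peak, with a span of 62.1 kb.

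**Figure D5:**
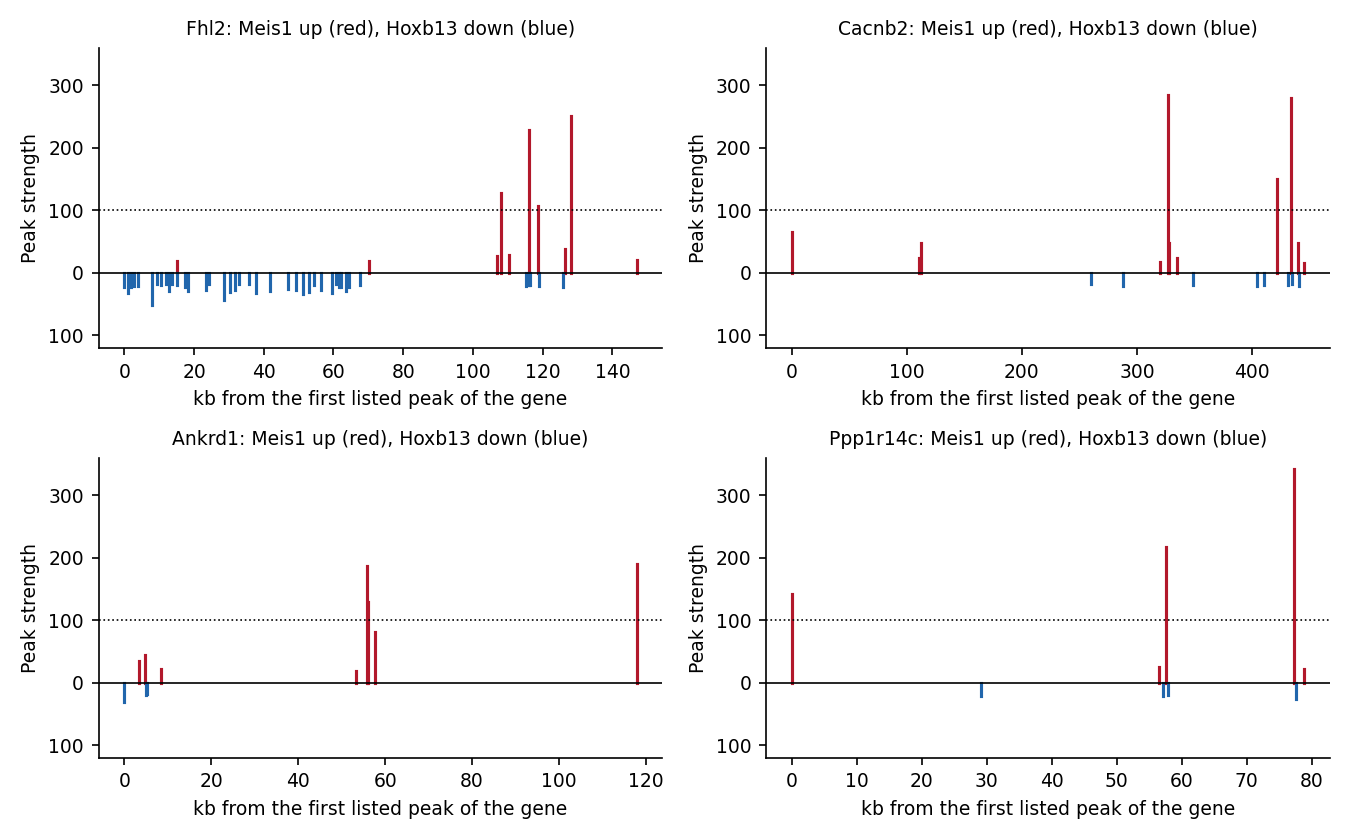
Strength of every peak assigned to Fhl2, Cacnb2, Ankrd1 and Ppp1r14c against position in kb from the first listed peak of the gene, with Meis1 upward and Hoxb13 downward, and the dotted line at a Meis1 strength of 100. Strengths of the 2 factors come from separate lists and are not on a shared scale; the 4 strong peaks of Fhl2 stand together, apart from most of its 41 Hoxb13 peaks.

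The 26 groups within 10 kb lay at genes of many kinds, among them Frmd6, Bcl2l11, Exog, Lsm3, Cntnap2, Entpd5, Pard3, Foxo6, Slc38a2 and Otud1. The Myl2 peaks of 540 and 168 were 1.64 kb apart, those of Hopx (220.5 and 133) 0.454 kb, and those of Jph2 (375 and 105) 2.19 kb. Lrrc10 paired its promoter peak with one of 125 at -2.73 kb. Pecam1, an adhesion molecule of endothelium and platelets, had both peaks in its intron 13. The 2 peaks of Pkp2, the plakophilin of cardiac desmosomes, were farther apart, at 36.8 kb, with 257 in intron 6 and 131 in intron 1, and were its only Meis1 peaks.

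The last comparison was with Hoxb13. A Hoxb13 peak overlapped 96 of the 863 by at least 1 bp (11.1%, 9.10 to 13.4), against 5.38% of the remaining peaks and 5.54% of all Meis1 peaks. The odds ratio was 2.2 (1.77 to 2.74, Fisher's exact test, two-sided, adjusted p = 1.979e-10 over 5 tests). Against the peaks of strength 50 to 100, of which 12.5% overlapped, it was 0.873 (0.675 to 1.13, exact test, adjusted p = 0.417). Of the 96, 26 were promoter peaks, 32 intronic and 31 intergenic. In promoters alone the share was 36.1%, against 36.4% (odds ratio 0.988), and outside promoters 8.85% against 3.16% (2.97, exact test, adjusted p = 2.736e-13). A minimum overlap of 50% of both peaks gave 2.09% against 2.42% (odds ratio 0.860). Since 493 of the 863 are narrower than 198 bp, they cannot cover 50% of a Hoxb13 peak of the usual 396 bp. With every Meis1 peak set to 284 bp around its summit, which was added after the data were seen, the shares were 13.1% and 5.45%.

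Hoxb13 peaks at these sites were of ordinary strength. Their median was 23.9, against 21.4 for all Hoxb13 peaks, and 1 of the 96 strongest Meis1 peaks that overlapped met a Hoxb13 peak of 100 or more: that of the corepressor gene Tle2 (133, with a Hoxb13 strength of 351). Of all 22284 Hoxb13 peaks, 172 reached 100. The 2 summits of an overlapping pair were a median of 175.5 bp apart, and 31 of the 96 pairs were within 100 bp. For the 1597 remaining peaks with an overlap the median was 151 bp, and 557 were within 100 bp. The strongest Meis1 peaks with an overlap were those of En1 (summits 264 bp apart), A330074K22Rik (65 bp, Hoxb13 strength 80.5), the Lclat1 intron (45 bp), Ryr2 (223 bp), Lrrc3 (120 bp) and Rtn4 (18 bp). Kcng2, Rap1gds1, A930031H19Rik, Gpat3, Eea1, Kcnj5, Lsm3, AW549542 and Mir6943 followed, with Hoxb13 strengths between 18.5 and 27.3. The strongest peaks of Lclat1 and Myl2, at 552 and 540, overlapped none, while 6 of the 20 strongest did overlap a Hoxb13 peak. Above a strength of 300 the overlap share was 21.6% (exact interval 11.3 to 35.3), and at 200 to 300 it was 10.3%. This difference was not tested. In all of these tests each peak counts as independent, which peaks of the same locus may not be, so p-values may be too small.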

How the data were processed

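The data were 2 annotated peak lists, 1 for Meis1 and 1 for Hoxb13. The submitters' processing notes name the mm10 build, ChIPseeker, Picard, deepTools 1.6 and Bowtie2 2.2.3, without their roles. Which peak caller made the lists, and how it joined the 3 libraries of a factor, is not given in the sources used here. Peak strength is the authors' deposited signal value. The second value is a deposited score that the files do not name, and it was used for 1 alternative only. Per the file headers the lists also give a summit offset, an annotation class, a distance and a gene, which were used as deposited. There were 0 columns of per-sample values left unused.

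The strongest peaks were those with a strength of at least 100. Classes and shares were compared with the remaining peaks by the two-sided exact test of Fisher, with exact (Clopper-Pearson) 95% intervals for shares and Woolf intervals for odds ratios, in Python 3.11.15 with scipy 1.17.1, and adjusted by Benjamini-Hochberg over 7 classes and over 5 other shares, with a threshold of 0.05. Intervals cover counting error only. A motif test around every summit was planned. With no genome used here it was done on RefSeq promoter windows, 1 window per peak. Of the 781 genes, 779 matched RefSeq. The scripts were tested on simulated peaks.

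Genes named in the text were those of the 20 strongest peaks, up to 15 promoter peaks and up to 15 Hoxb13 overlaps by strength, the strongest peak of each other class, genes with 3 or more of the peaks, up to 4 per gene list, and 5 peaks on either side of the line. The cell type markers called planned were also named before. All other names were chosen after their values were seen. The peaks and the gene lists were chosen with earlier results of these data known. The count of 1 gene list is not reported here.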

Additional observations from a re-analysis of the deposited data

How the results depend on the processing

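Of 71 recomputed shares, 52 kept their direction and their side of the threshold. Odds ratios that did not were as follows, and unless stated the cause was not tested. At a strength of at least 80 the promoter share passed the test (1.44), as it did against the weakest 50% of the list (2.47), where 5′ UTRs (4.23) passed too and downstream peaks (1.21) and first introns (1.11) turned in direction. With the strongest peak of each 50 kb group alone, downstream peaks (1.16) and first introns (1.01) turned as well. Hoxb13 overlap turned in promoters alone (0.988) and at a reciprocal 50% (0.860), which most of these narrow peaks cannot reach. Without intergenic peaks, promoters gave 0.925 and introns 1.12. Against the peaks of strength 50 to 100, promoters (0.649), introns (1.03), 3′ UTRs (0.919), intergenic DNA (1.15), the shares within 10 kb (0.884) and beyond 100 kb (1.08), the upstream share (1.15) and Hoxb13 overlap (0.873) turned or no longer passed. Groups numbered 26 at 10 kb, against 56 at 50 kb. Within 50 bp of the summit the GATA, CRE and nuclear receptor motifs had odds ratios of 0 and TEAD 0.718. Taking as many peaks by the second score, with ties ordered by strength, gave the same 863, because they share 1 value, so it tests nothing and is not among the 71. The alternatives against peaks of 50 to 100, without intergenic peaks and with fixed widths were added after the data were seen. No paired analysis was possible because each factor has 1 list with no value per library, and leaving out a replicate could not be run for the same reason. Nothing here shows how a strength varies between hearts.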
